A study of Mus musculus with 96 samples.

Results

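The genes described here are the splicing regulators of 4 families, the SR proteins, the hnRNPs, the SF3a and SF3b subunits and the U2AF subunits, in single mouse haematopoietic stem cells. They were taken by symbol, as every gene of the count table whose symbol begins with Srsf, Hnrnp, Sf3a, Sf3b or U2af, other than symbols with -ps. This gave 40 of the 38406 genes listed: 11 SR protein genes, 18 hnRNP genes, 8 SF3a and SF3b genes and 3 U2AF genes. All 40 had at least 1 count in the cells kept, as had 21211 genes in all. The cells belong to 1 group, HSC1, bone marrow cells of C57BL/6 mice aged 9 to 12 weeks with no treatment or transgene named, sorted singly as negative for lineage markers, CD34, Flt3 and CD48 and positive for c-Kit, Sca-1 and CD150. Each of the 96 cells is 1 library, so no cell barcodes are shared between libraries. The mouse behind each cell is not named in the sources used here, and the 92 cells kept count as a single sample of the gate. With 1 group there is no comparison between conditions, and relations across cells are given as descriptions.

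Splicing removes introns from pre-mRNA, and the choice of splice sites is set by proteins that bind the transcript before the spliceosome is complete. SR proteins bind exonic enhancers and recruit the splicing machinery, and many hnRNPs bind silencers or intronic elements and oppose them. U2AF recognises the end of the intron, and SF3a and SF3b are the protein complexes of the U2 snRNP, the particle that then engages the branch point. The human counterparts of Sf3b1, Srsf2 and U2af1 are recurrently mutated in myelodysplastic syndromes and related myeloid neoplasms, which arise from blood stem and progenitor cells.

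Of the 96 cells, 92 passed the filter on gene counts, detected genes and the share of ERCC spike-ins, which are control RNAs put into every well at a known amount. Their gene counts ran from 739093 to 3473151 with a median of 1599930, and 4945 to 8727 detected genes. Cell 18 had both the most counts and the fewest detected genes, and 4 cells (49, 53, 66 and 78) stood apart from the rest on the first principal component of an earlier analysis of these counts. Values below are normalized counts, the count divided by the cell's size factor. A limit of 3 counts corresponds to 1.31 to 5.72 normalized counts, depending on the cell. As to the label, 14 of 14 stem cell markers had counts and took 0.231% to 0.806% of gene counts per cell. Markers of other cell types were also counted in part. Of 8 megakaryocyte markers all had counts, with a summed share of 0% to 0.56% and a median of 0.0116%, and Pf4, Itga2b and Gp1bb were called variable. Of 8 myeloid markers 5 had counts (0.0102% to 0.216%, median 0.0893%), with Lyz2 in all 92 cells (mean 978) and Prtn3 in 90 (mean 413), whereas Mpo, Elane and Ctsg had none. Of 8 lymphoid markers 5 had counts (0% to 0.0266%, median 0.00597%), with Cd79b in 63 cells (mean 107), whereas Cd3e and Il7r had none. Of 8 erythroid markers 5 had counts (0% to 0.0783%, median 2.26e-05%), with Hbb-b2 in 31 cells and called variable.

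The splicing regulators were among the broadly detected genes of these cells. At least 1 count in every kept cell was found for 12 of the 40 (30%), beside 2.84% of all genes with counts. Counts in at least 46 cells were found for 38, beside 29.1% of all genes. The exceptions were Hnrnpul2, counted in 29 cells, and Srsf12, counted in 4. A cell had counts for 30 to 40 of the 40 genes, with a median of 35. These genes are also highly expressed, with a median of the mean normalized count of 256 beside 7.84 over all genes with counts, and detection rises with level. All 12 were among the 24 members with a mean of at least 200 (50%), beside 29.3% of the 1425 genes at that level.

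**Figure D1:**
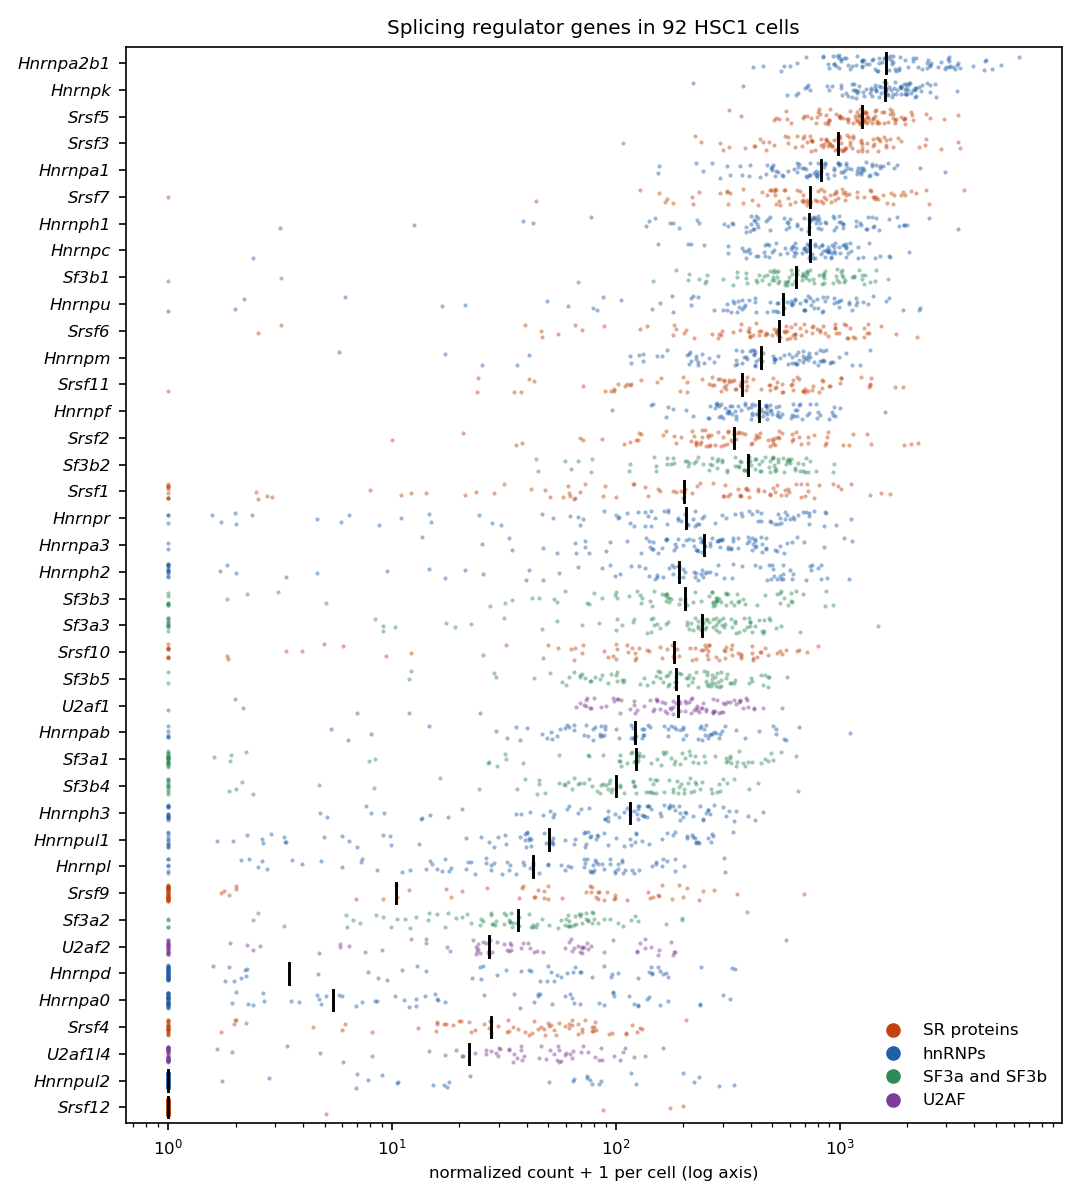
Normalized count plus 1 (log axis) of each of the 40 genes, with 1 point for each of the 92 cells and a black bar at the median, ordered by mean and coloured by family. Hnrnpa2b1 and Hnrnpk lie above 200 in every cell, whereas the points of Srsf9, Hnrnpd and Hnrnpa0 are spread from 0 to over 300.

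Among the SR proteins, Srsf5, Srsf3 and Srsf7 were the most abundant in normalized counts. Srsf5 (chromosome 12, 80945504 to 80950507), an SR protein that binds exonic enhancers, ranged from 319 in the lowest cell through a median of 1252 to 3371 in cell 63 (mean 1296 ± 530, SD, n = 92 cells). Srsf3 (chromosome 17, 29032628 to 29043373), the smallest SR protein and also an adaptor for mRNA export, ranged from 106 through 986 to 3446 in cell 53 (mean 1080 ± 609). Srsf7 (chromosome 17, 80200080 to 80207307), an SR protein with a zinc knuckle, had no count in cell 8 and reached 3583 in cell 53, with a median of 738 (mean 897 ± 619). The top cell of Srsf3 and Srsf7 was thus the same, and it was also the top cell of Srsf10 and Srsf4.

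Srsf6, an enhancer-binding SR protein, ranged from 1.52 through a median of 536 to 2207 in cell 63 (mean 613 ± 414). Srsf11, an SR-related member of the family, had a median of 364 and a maximum of 1912 in cell 27, with no count in 1 cell (mean 483 ± 391). Both were counted in nearly every cell, yet their lowest values lay near or under the limit of 3 counts. Srsf2 (chromosome 11, 116849901 to 116853094), an enhancer-binding protein of nuclear speckles, was counted in every cell, from 8.97 through a median of 336 to 2243 in cell 54 (mean 459 ± 411). Srsf1 (chromosome 11, 88047373 to 88053755), a founding member of the family, had no count in 9 cells, a median of 201 and a maximum of 1673 in cell 27 (mean 321 ± 354). The SD of Srsf1 exceeded its mean.

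The 4 other SR genes were lower. Srsf10, a repressor of splicing when dephosphorylated, had a mean of 217 and was counted in 84 cells. Srsf9 was counted in 54 cells, with a median of 9.45 and a maximum of 694 in cell 18. Srsf4 was counted in 71 cells with a median of 26.7. Srsf12 (chromosome 4, 33208991 to 33233340), a relative of Srsf10, was counted in 4 cells and reached 199 in cell 10. For Srsf12 the other 88 cells had a count of 0, which allows up to 1.31 to 5.72 normalized counts per cell.

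The hnRNPs held the 2 highest means of the 40. Hnrnpa2b1 (chromosome 6, 51460932 to 51469894), which binds and sorts RNAs, ranged from 408 through a median of 1614 to 6360 in cell 52 (mean 1941 ± 1160). It alone took 11.3% of the counts of the 40 genes. Hnrnpk (chromosome 13, 58391142 to 58403343), a binder of C-rich RNA, ranged from 221 through 1601 to 3359 in cell 28 (mean 1584 ± 561). The spread of Hnrnpk relative to its mean was smaller than that of Hnrnpa2b1.

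Hnrnpa1 (chromosome 15, 103240432 to 103246692), which binds exonic silencers, ranged from 154 through 825 to 2958 in cell 54 (mean 904 ± 469). Hnrnpc (chromosome 14, 52073377 to 52104028), a binder of U tracts, ranged from 1.4 through 734 to 2034 in cell 63 (mean 770 ± 347). Hnrnph1 (chromosome 11, 50376990 to 50386528), which binds runs of G, ranged from 2.15 through 727 to 3396 in cell 9 (mean 797 ± 577). All 3 had a count in every cell, and the lowest cells of Hnrnpc and Hnrnph1 were under or near the limit of 3 counts. Hnrnpu (chromosome 1, 178321108 to 178337797), a scaffold protein that also binds chromatin, had no count in 1 cell, a median of 559 and a maximum of 2287 in cell 54 (mean 627 ± 475).

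Hnrnpm, a binder of GU-rich RNA, ranged from 4.81 through 442 to 1371 in cell 54 (mean 498 ± 293). Hnrnpf, a relative of Hnrnph1, ranged from 95.2 through 436 to 1600 in cell 18 (mean 479 ± 236). Hnrnpr, which is related to Syncrip, was counted in 89 cells with a median of 205 and a maximum of 1120 (mean 294 ± 272). Hnrnpm and Hnrnpf were thus counted in every cell and Hnrnpr was not. Hnrnph2, another relative of Hnrnph1, was counted in 79 cells with a median of 190 and a maximum of 1096 in cell 56 (mean 264 ± 261). Hnrnpul1, a relative of Hnrnpu, was counted in 82 cells with a median of 49.2 and a maximum of 334 (mean 78.6 ± 83.7). Of the remaining 7, Hnrnpa3, Hnrnpab, Hnrnph3, Hnrnpl, Hnrnpd, Hnrnpa0 and Hnrnpul2, the means ran from 291 for Hnrnpa3 down to 25 for Hnrnpul2. Hnrnpd, which binds AU-rich elements and directs mRNA decay, was counted in 54 cells with a median of 2.47, and Hnrnpa0 in 58 cells with a median of 4.43.

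The 8 SF3a and SF3b genes were counted in at least 71 cells each. Sf3b1 (chromosome 1, 54985169 to 55027481), the large SF3b subunit that holds the branch point, had no count in 1 cell, a median of 637 and a maximum of 1646 in cell 51 (mean 685 ± 346). Sf3b2, the only gene of the group counted in every cell, ranged from 43.1 through 387 to 944 in cell 89 (mean 395 ± 205). The means of the other 6 lay between 50.2 for Sf3a2 and 248 for Sf3b3. The subunits of 1 complex therefore differed widely in normalized count, Sf3a3 having a mean of 239, Sf3a1 of 155 and Sf3a2 of 50.2, on a scale that is not set per length. Cell 18 held the highest value of Sf3a2, Sf3a3 and Sf3b4, as it did of Hnrnpf, Srsf9 and U2af2.

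Of the U2AF subunits, U2af1 (chromosome 17, 31647081 to 31658892), which reads the last bases of the intron, had no count in 1 cell, a median of 188 and a maximum of 554 in cell 53 (mean 199 ± 113). U2af2 (chromosome 7, 5062143 to 5079938), its partner that binds the pyrimidine tract, was counted in 71 cells with a median of 26 and a maximum of 573 in cell 18, the next cell being at 183 (mean 48.4 ± 74.3). U2af1l4, a relative of U2af1, was counted in 57 cells with a mean of 30.8. U2af1 and U2af1l4 were both counted in 57 cells, and per kb of exon U2af1l4 was the higher in 9.

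Levels can be compared between genes only per length. Per kb of exon, the order of the mean normalized count began with Srsf5 (325 per kb), Hnrnpa2b1 (295), Hnrnpa1 (287), Srsf7 (253) and Hnrnpk (245), and went on with Hnrnpc, Hnrnpf, Srsf2, Srsf3 and Hnrnph1. Neighbours among these first 5 differ by less than the spread over single cells, which is not an error of the mean. Per kb of the longest coding sequence, Srsf3 came first (2194 per coding kb), followed by Hnrnpa2b1, Srsf5, Srsf7 and Hnrnpk. Sf3b5, a small SF3b subunit, moved from rank 24 per exon kb to rank 8 per coding kb. Sf3b1 had 60.2 per exon kb (rank 17), U2af1 had 76.5 (rank 13) and U2af2 had 11.8 (rank 34). The U2AF partners differed in level by more than 6-fold on this scale.

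Counting is uncertain for some of these genes. The library kit carries no strand, and exons of U2af1l4 (66.1% of bases), Srsf4 (43%), Hnrnpab (29.1%), Hnrnpf (26.5%) and Srsf2 (25.3%) overlap another annotated gene. Of the windows of 50 bases in its exons, Hnrnpf shares 61.9% with transcripts of other genes, Sf3b4 45.3%, U2af1l4 42.4%, Srsf4 39.5%, Hnrnpa1 28.2%, Hnrnpa3 27.1%, Hnrnpab 23.8%, U2af1 21.7% and Srsf2 20.7%, and the other members under 20% each. Whether reads were lost or moved there was not tested. The rule left out Hnrnpa1l2-ps, a row with a mean of 0.282. It also missed genes under other symbols: Hnrpdl had a mean of 423, 0610009D07Rik of 296, Sfrs18 of 289 and Hnrpll of 72.6. The family counts given here do not cover these genes.

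Variation between cells was set against the technical noise of the spike-ins. None of the 40 splicing regulators was called by a chi-square test after Brennecke et al., which sets a gene's squared coefficient of variation against spike-in noise (0 called at a Benjamini-Hochberg adjusted p under 0.1, beside 2.64% of all genes with counts). At an unadjusted p under 0.05 the count was also 0, beside 4.27% of all genes, and no other tool was run. The lowest unadjusted p was 0.103, for Srsf1, with an adjusted p of 1. The test asks for a biological coefficient of variation over 0.5, so a p that misses the threshold does not show that levels were alike between cells. With a minimum of 0.25 in place of 0.5, 1 member, Srsf1, was called, beside 3.42% of all genes. With genes scaled by spike-ins, 7 members were called (Hnrnpab, Hnrnph1, Hnrnpu, Srsf1, Srsf2, Srsf3 and Srsf7), beside 4.94% of all genes. Under that scaling 27 of the 40 lay above the technical curve, beside 24.9% of all genes, and with a mean of at least 200 it was 25 of 26 members, beside 74.5% of genes.

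Without that minimum, 11 of the 40 had a squared coefficient of variation above the fitted technical curve, beside 12.4% of all genes. The share above the curve rises with level, and all 11 had a mean of at least 200. At that level 11 of 24 members (45.8%) were above it, beside 29.8% of the 1425 genes. They were the SR genes Srsf1, Srsf2, Srsf3, Srsf6, Srsf7 and Srsf11 (6 of 8 SR genes at that level) and the hnRNP genes Hnrnpa2b1, Hnrnph1, Hnrnph2, Hnrnpr and Hnrnpu (5 of 11). None of the 5 SF3a and SF3b genes with a mean of at least 200 was above the curve, nor any of the 3 U2AF genes, whose means were all under 200. These counts over families were not tested. The median ratio of observed to technical squared variation over the 24 was 0.785, beside 0.795 over the 1425 genes.

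Srsf1 had the largest ratio of the 40, 1.63, followed by Hnrnpa2b1 with 1.60, Srsf2 with 1.44, Hnrnph1 with 1.41 and Srsf7 with 1.39. Hnrnpu had a ratio of 1.31, Srsf11 of 1.22, Hnrnph2 of 1.11 and Hnrnpr of 1.07. Among the abundant members below the curve were Hnrnpk (0.508), Hnrnpc (0.535), Srsf5 (0.608), Sf3b1 (0.617) and Hnrnpa1 (0.786). U2af1 had a ratio of 0.288 and U2af2 of 0.553, which was 0.291 without cell 18. Hence Srsf5 and Srsf3, 2 SR genes of like normalized count, lay on different sides of the curve, Srsf3 at 1.04. Srsf3, Srsf6 and Hnrnpr fell below it under at least 1 of the alternatives run, and the other 8 stayed above it under each of them. The fit rests on 16 spike-ins, which themselves lie between 0.285 and 2.13 times the fitted curve.

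**Figure D2:**
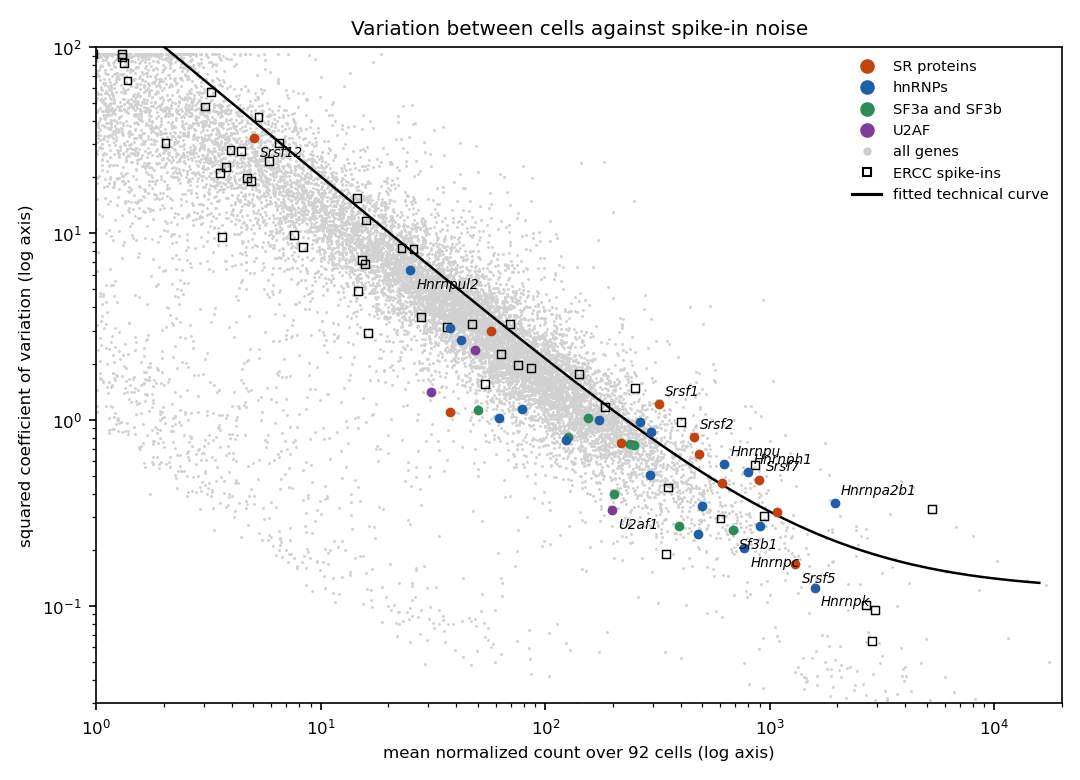
Squared coefficient of variation against mean normalized count (both log axes) over 92 cells, for all genes with a mean of at least 1 (grey), ERCC spike-ins (open squares) and the splicing regulators by family, with the fitted technical curve for genes (line). Srsf1, Srsf2 and Hnrnpa2b1 lie above the line, and Hnrnpk, Srsf5 and U2af1 below it.

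Together the 40 genes took 1.04% of a cell's gene counts at the median (mean 1.07% ± 0.252, SD, n = 92). The lowest cell was cell 3 with 0.675% (95% exact Clopper-Pearson interval 0.662% to 0.689%) and the highest cell 53 with 2.09% (2.07% to 2.11%), the next being cell 54 with 1.71%. Reads carry no molecular identifiers, so intervals and limits cover counting error only. The intervals of the end cells are narrow beside the distance between them. By family, hnRNPs took 0.322% to 1.03% with a median of 0.557%, and SR proteins 0.183% to 0.844% with a median of 0.316%. SF3a and SF3b took 0.0380% to 0.241% with a median of 0.127%, and U2AF 0% to 0.0361% with a median of 0.0179%. Cell 53 was the top cell for SR proteins, hnRNPs and U2AF, whereas cell 37 was for SF3a and SF3b.

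**Figure D3:**
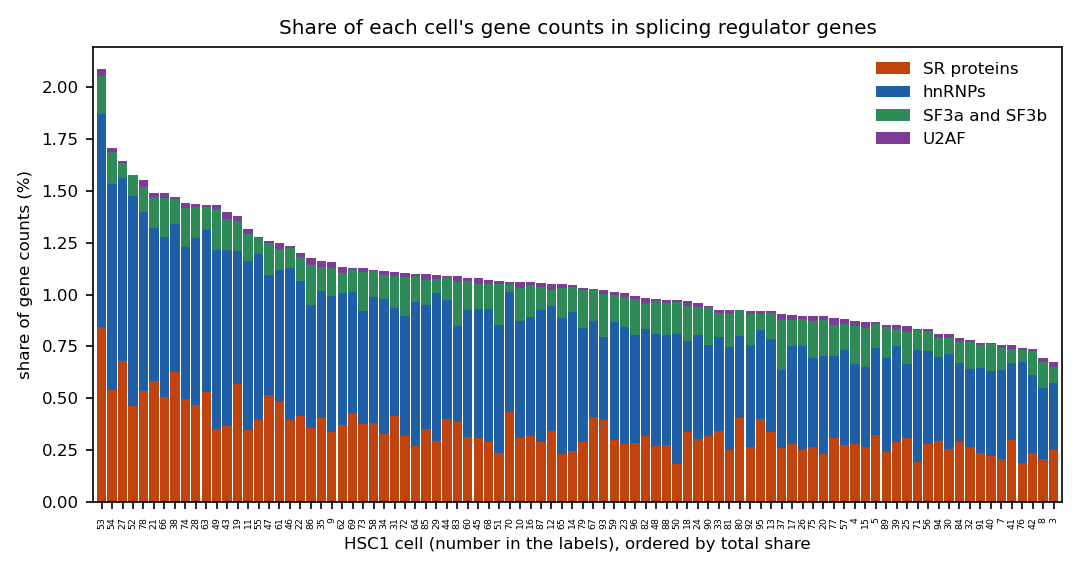
Share of gene counts (%) taken by the 40 genes in each of the 92 cells, stacked by family and ordered by total. Cell 53 is highest with 2.09% and cell 3 lowest with 0.675%, and hnRNPs and SR proteins make up most of each bar.

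The cells at the top of this order differed in other measures. Cell 53 had the most detected genes of all (8727), a low ERCC share of 0.444% and the fourth highest G2/M score, a mean z score over 20 genes of mitosis. Cells 66 and 78 held the 2 highest G2/M scores, 4.28 and 3.34, with member shares of 1.49% and 1.55%. Cells 54, 27, 52 and 38 had G2/M scores of 0.00404, -0.342, -0.0848 and -0.220 and shares of 1.71%, 1.64%, 1.58% and 1.47%. A high share was therefore found in cells with and without a high G2/M score. The mean z score of megakaryocyte markers was 1.45 in cell 53, 1.78 in cell 78, 1.70 in cell 66 and 0.980 in cell 21. It was 0.0185 in cell 52, -0.0288 in cell 38, -0.536 in cell 54 and -0.502 in cell 27. Across the 92 cells the share had r = 0.323 with that score (rho = 0.147). Without cells 49, 53, 66 and 78 r was -0.00513. These cells held the highest megakaryocyte scores as well as the highest G2/M scores, so their removal cuts the range of both. With the other marker scores r was 0.263 for erythroid, -0.201 for lymphoid, -0.185 for myeloid and -0.224 for stem cell markers. The part of other cell types in the share was not tested.

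Across the 92 cells, the share correlated with the score of 20 G1/S genes, which serve DNA replication (Pearson r = 0.562, Spearman rho = 0.428), and r was 0.475 without the 2 cells farthest out. The G1/S scores are uneven. The 9 cells with a score over 0.5 had shares of 0.809% to 2.09% with a median of 1.44%, and 8 of them lay above the median of all cells. The other 83 had shares of 0.675% to 1.64% with a median of 1.01%, and within them r was 0.322 (rho = 0.321). The groups of cells thus overlap. With the G2/M score r was 0.359 and rho was -0.0135. Cells 49, 53, 66 and 78 held the highest G2/M scores of all (2.17, 1.30, 4.28 and 3.34). Their shares were 1.43%, 2.09%, 1.49% and 1.55%, each above the median of 1.04%. Without them r was -0.115. Their removal takes away most of the range of the score, so that value says nothing about cells with a high score.

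Measures of library quality differed in how far they moved with the share. The r of the share was 0.382 with the log10 number of detected genes (rho = 0.272), 0.201 with gene counts and 0.0187 with the ERCC share. Without cells 49, 53, 66 and 78 the r with detected genes was 0.224 and that with the ERCC share 0.212. The part of detection in the relations above was not tested. The families differed here: the share of SF3a and SF3b had r = 0.0869 with detected genes and r = -0.328 with the ERCC share, whereas that of hnRNPs had 0.331 and 0.0823 (0.248 with the ERCC share without those 4 cells, where SF3a and SF3b had -0.289). SR proteins had r = 0.330 and 0.0600 with these measures, and U2AF had 0.366 and -0.302. In all, 7 measures and 5 marker scores were set against the total share. The sources used here do not name the preparation behind each cell, and the shares are parts of the same total.

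The share was lower in cells where the genes of the cytosolic ribosome took more counts (r = -0.378, rho = -0.359, and -0.478 without 2 cells). Hnrnpa2b1 showed this most, with r = -0.520 (rho = -0.576) between its level and the ribosomal protein score, followed by Srsf3 with -0.359 and Srsf2 with -0.351. Over the 24 members with a mean of at least 200 the median r was -0.110 and 20 were negative (83.3%), beside a median of -0.0357 and 59.3% over 1322 genes at that level that are neither members nor ribosomal. Hnrnpc went the other way by Pearson's r (0.433) but not by rho (-0.192). The r between family share and ribosomal share was -0.381 for hnRNPs and -0.335 for SR proteins. It was 0.0573 for SF3a and SF3b and 0.0853 for U2AF, so those families did not share the relation by these values.

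Correlations between the splicing regulators were weak on the whole. Over the 703 pairs of the 38 genes counted in at least 46 cells, the median r of log10(normalized count + 1) was 0.0527, and 67% of pairs were positive. Over all pairs of the 6179 genes with the same detection the median was 0.0118 and 54.2% were positive. An r over 0.3 was found for 23 member pairs (3.27%), beside 0.5% of all pairs. With a mean of at least 200 it was 5.07% of member pairs, beside 1.46% of gene pairs. That share was 2.42% for genes of the core spliceosome, 2.25% for proteasome subunits and 2.04% for translation initiation factors. For cytosolic ribosomal protein genes it was 24.5%. The median r was 0.0531 for 46 core spliceosome genes, 0.0533 for 37 proteasome subunit genes and 0.0202 for 48 translation initiation factor genes. For 82 cytosolic ribosomal protein genes it was 0.180. The member median is thus like those of the core spliceosome and the proteasome. The 11 members above the technical curve had a median of 0.143 over 55 pairs, beside 0.00664 over pairs of the 423 genes with a mean of at least 200 above it and 0.0169 over 13 such members below it.

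**Figure D4:**
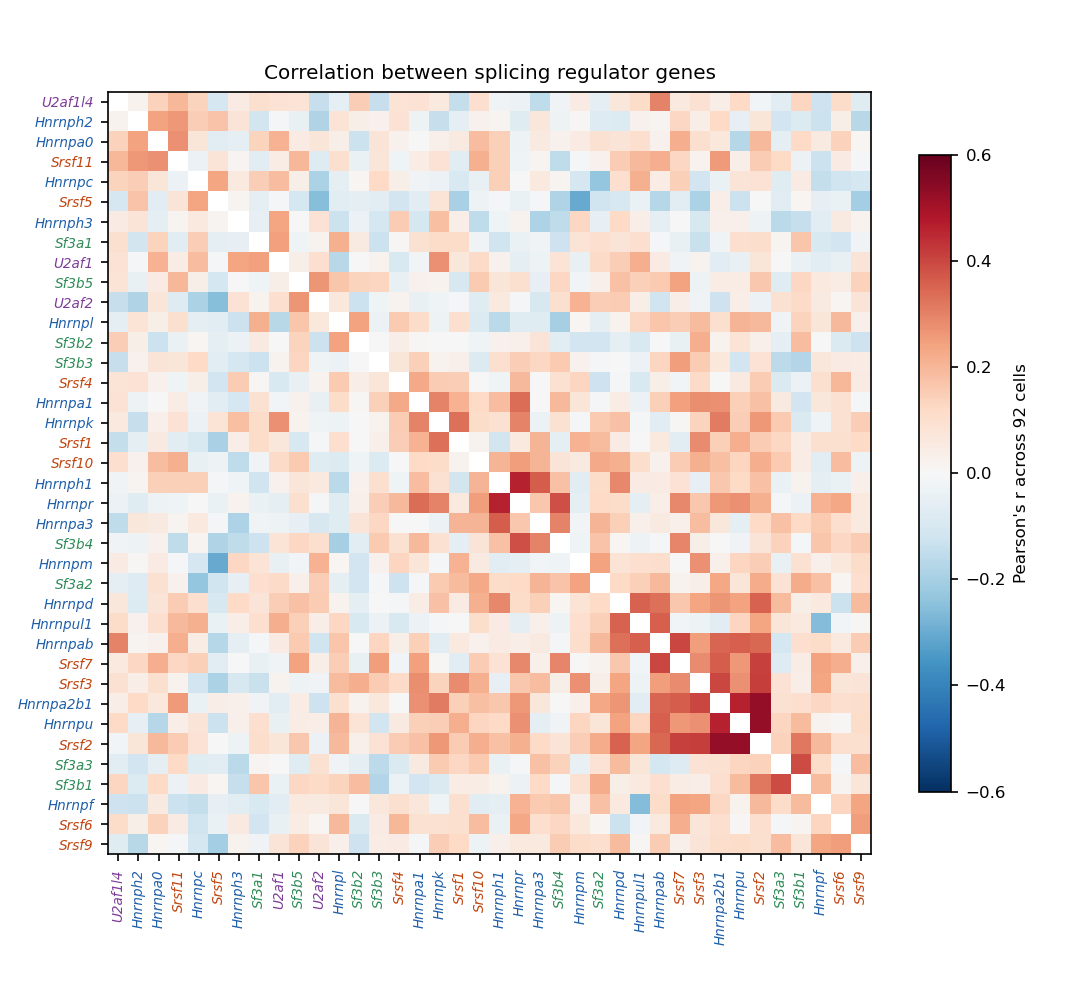
Pearson's r across 92 cells between the 38 genes counted in at least 46 cells, ordered by average-linkage clustering, with names coloured by family. The darkest block joins Srsf2, Hnrnpu, Hnrnpa2b1, Srsf3, Srsf7 and Hnrnpab, in which Srsf2 and Hnrnpu have r = 0.527.

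The 5 pairs with the largest r drew on 6 genes. Srsf2 and Hnrnpu had r = 0.527 (rho = 0.574, and 0.504 given detected genes). Srsf2 and Hnrnpa2b1 had r = 0.526 (rho = 0.570, and 0.537 given detected genes). Hnrnpa2b1 and Hnrnpu had r = 0.460 (rho = 0.521). The 5 pairs were picked for the largest r of 703, so their lying above other pairs follows from that choice. The median r was 0.0795 within the SR proteins and 0.0562 within the hnRNPs, beside 0.0527 over all member pairs. Srsf2 and Srsf3 had r = 0.413 (rho = 0.533). Hnrnph1 and Hnrnpr had r = 0.461, which fell to 0.319 without the 2 cells farthest out.

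The lowest values were r = -0.304 for Hnrnpm and Srsf5, -0.262 for Hnrnpf and Hnrnpul1, and -0.255 for Srsf5 and U2af2. These pairs had r = 0.121, 0.0296 and 0.0991 when genes were scaled by spike-ins, so their sign depends on the scaling. The 5 positive pairs stayed positive under each alternative run on them. Near relatives differed in how far they tracked each other. Over all member pairs the median r was 0.0527 and the upper quartile 0.142. Hnrnph1 and Hnrnph2 had r = 0.0158 and were both counted in 79 cells, Hnrnph2 being the higher per kb of exon in 19. On the same scale Srsf6 was higher than Srsf4 in 91 of the 92 cells (r = 0.199), and Hnrnpa2b1 was higher than Hnrnpa1 in 39 (r = 0.276). Srsf3 and Srsf7 had r = 0.284, and Hnrnpd and Hnrnpab 0.333.

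Srsf2, Hnrnpu and Hnrnpa2b1, chosen for their r in these same cells, were followed further by cell. The overlaps below restate that r and are no separate support for it. Of the 23 cells highest in Srsf2, 14 were also among the 23 highest in Hnrnpu and 15 among the 23 highest in Hnrnpa2b1. In 11 cells all 3 genes were in their highest 23: cells 21, 27, 28, 38, 43, 47, 49, 53, 54, 59 and 66. Cell 54 held 2243 of Srsf2, 2287 of Hnrnpu and 4478 of Hnrnpa2b1. Cell 3, the cell of lowest share, held 8.97, 15.7 and 1190. Only 3 cells were in the highest 23 of Srsf2 or Hnrnpa2b1 and the lowest 23 of the other. Hnrnpk and Srsf5, 2 abundant members below the technical curve taken as an example, shared 7 of their highest 23 cells, and 13 cells were crossed. Exons of Srsf2 overlap Mettl23 and Mfsd11 on the other strand, and their part in its counts was not tested.

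The RefSeq promoters of these 3 genes, 250 bases before to 50 bases after the start on GRCm38.p6, are shown because their levels moved together. Where several windows were listed for a gene, as the 2 of Hnrnpa2b1, only the first was used, here and in the shares below. All lie on the minus strand and are written 5′ to 3′ along it: Srsf2 at chr11:116853045-116853344, Hnrnpu at chr1:178337766-178338065 and Hnrnpa2b1 at chr6:51469845-51470144. Capitals mark matches on either strand to the CCAAT box, to GGGCGG, known as the GC box, and to TATAAA, known as the TATA box. A match on the other strand appears as its reverse complement, and overlapping matches run together.
Srsf2: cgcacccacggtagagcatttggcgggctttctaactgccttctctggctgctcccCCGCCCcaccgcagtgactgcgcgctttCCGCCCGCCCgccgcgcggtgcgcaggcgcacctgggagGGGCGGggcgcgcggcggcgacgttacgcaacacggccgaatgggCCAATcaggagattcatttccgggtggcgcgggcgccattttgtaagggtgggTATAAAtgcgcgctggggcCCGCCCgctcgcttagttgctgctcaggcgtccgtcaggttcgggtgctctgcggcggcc
Hnrnpu: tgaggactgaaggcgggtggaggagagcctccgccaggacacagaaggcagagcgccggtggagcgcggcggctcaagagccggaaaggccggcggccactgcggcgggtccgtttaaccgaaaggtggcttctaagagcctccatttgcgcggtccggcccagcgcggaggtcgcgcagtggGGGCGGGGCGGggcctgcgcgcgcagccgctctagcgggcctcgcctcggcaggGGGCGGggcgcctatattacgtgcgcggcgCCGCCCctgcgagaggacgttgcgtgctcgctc
Hnrnpa2b1: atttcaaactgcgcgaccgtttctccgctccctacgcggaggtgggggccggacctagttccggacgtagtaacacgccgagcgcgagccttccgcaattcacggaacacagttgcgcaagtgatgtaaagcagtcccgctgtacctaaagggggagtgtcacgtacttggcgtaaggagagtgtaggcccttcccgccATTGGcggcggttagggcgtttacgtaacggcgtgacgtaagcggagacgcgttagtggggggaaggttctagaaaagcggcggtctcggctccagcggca
The 3 windows hold no set of letters in common among those searched. Srsf2 has 5 matches to GGGCGG, 1 to CCAAT and 1 to TATAAA, Hnrnpu has 4 to GGGCGG, and Hnrnpa2b1 has 1 to CCAAT. No match was found in these windows to the other motifs searched on both strands, CACGTG and CTTCCGG. Promoters were found for 36 of the 40 genes, which lie on 17 chromosomes, and not for Hnrnpul2, Sf3b4, Sf3b5 and U2af2. Of the 36, GGGCGG was present in 26 (72.2%), beside 35.9% of all 27025 promoters, CCAAT in 19 (52.8% beside 37.9%) and CTTCCGG in 11 (30.6% beside 9.12%). TATAAA was in 5 (13.9% beside 14.2%) and CACGTG in 4 (11.1% beside 7.24%). The promoters set beside them were not matched to the members for expression level or GC content. GC content of the member windows ran from 48.3% for Hnrnpa1 to 79.7% for Hnrnpa0. A match is a run of letters and not a shown site, and these shares were not tested.

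**Figure D5:**
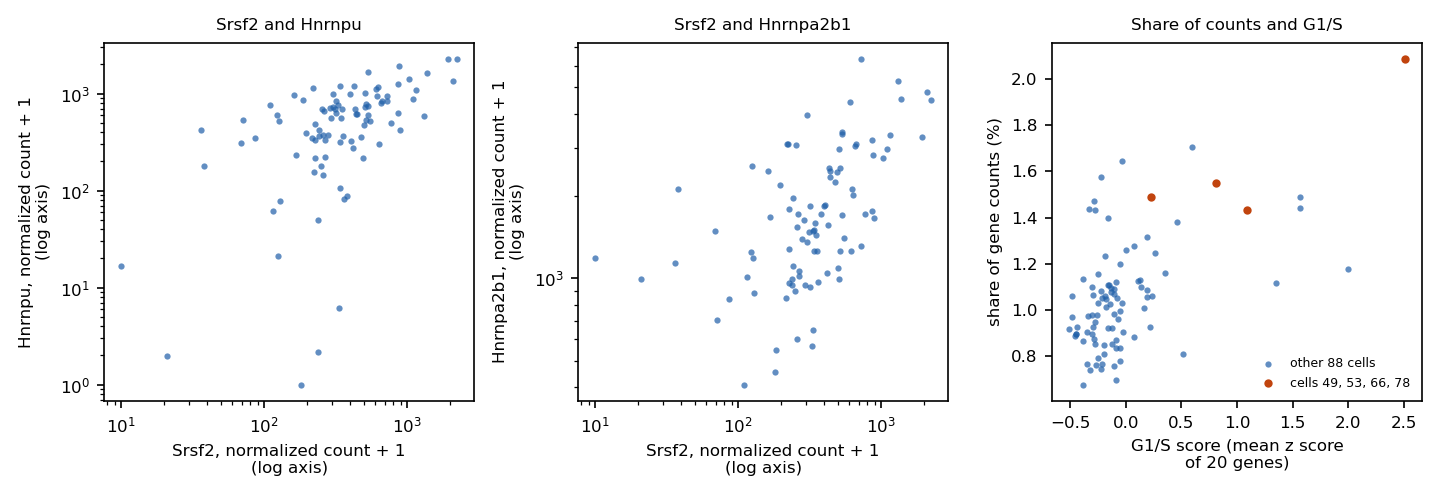
Left and middle, normalized count plus 1 (log axes) of Hnrnpu and of Hnrnpa2b1 against Srsf2, with 1 point per cell (92 cells, r = 0.527 and 0.526). Right, share of gene counts of the 40 genes (%) against the G1/S score, with cells 49, 53, 66 and 78 in red (r = 0.562 over all cells and 0.322 over the 83 cells with a score under 0.5).

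Other genes of the splicing pathway, were taken from 4 lists of 129 genes, of which 127 had counts. Of these, 2 were called variable, beside 2.64% of all genes, and 17 lay above the technical curve (13.4%, beside 12.4%). With a mean of at least 200, 12 of 41 were above it, beside 29.8% of genes at that level. By list this was 5 of 10 SR-related proteins and SR kinases and 5 of 15 other splicing regulators. It was 2 of 14 for the core spliceosome and 0 of 2 for the exon junction complex and nonsense-mediated decay. The core spliceosome list had 0 of 50 genes called and 3 above the curve. Its most abundant genes were Snrpb, a core Sm protein, with a mean of 767 ± 382, Ddx39b, a helicase, with 456 ± 285, and Puf60, a relative of U2af2, with 440 ± 256. Among SR-related proteins and SR kinases, 1 of 25 was called and 5 were above the curve. The called gene was Luc7l2, a U1 snRNP protein, counted in 80 cells with a median of 76.8 and a maximum of 1960 (mean 203 ± 325, ratio 2.31, adjusted p = 9.78e-05).

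Clk1, a kinase that phosphorylates SR proteins, was above the curve with a ratio of 1.28 (mean 672 ± 493), and Rbm39 (896 ± 428) and Srrm2 (460 ± 219) were below it. Among other splicing regulators, 1 of 37 was called and 9 were above. It was Mbnl3, of the muscleblind family, counted in 23 cells with a maximum of 939 (mean 41.9 ± 147, ratio 2.50, adjusted p = 5.16e-10). The most abundant of that list were Pcbp1 (809 ± 454), Nono (601 ± 290) and Ewsr1 (579 ± 316), which were not called. In the list of the exon junction complex and nonsense-mediated decay, 0 of 15 were called or above the curve, and Eif4a3 (396 ± 252), Rbm8a (219 ± 167) and Magoh (173 ± 118), subunits of the junction complex, were the most abundant.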

How the data were processed

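HSC1 cells were sequenced by the study as Smart-seq2 single-cell RNA-seq with Nextera XT libraries. The deposited values are unnormalized counts of each gene and spike-in, for which the submitters' processing notes name the build mm10, the aligner STAR (2.3.0), the counter HTSeq (0.6.1) and SAMtools (0.1.18). The annotation release and counting mode are not given in the sources used here. Depth per kept cell is 739093 to 3473151 gene counts.

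Cells over 3 median absolute deviations (scaled by 1.4826) from the median in log10 gene counts, log10 detected genes or ERCC share, on the side of poor quality, were left out (cells 1, 2, 6 and 36). Median-of-ratios size factors were taken apart for the 602 genes and the 8 spike-ins counted in every kept cell. Noise was fitted as in Brennecke et al. by a gamma model with identity link over 16 spike-ins of mean 67 or more (constant 0.120, slope 189.8). The smallest biological coefficient of variation tested for was 0.5, and p-values were adjusted over 21211 genes. These p-values cover noise in these cells and not variation between animals. Pearson's r was computed on log10(normalized count + 1). A score is the mean z score of a list. Coordinates and exon lengths are from GENCODE M21 on GRCm38, and promoters from RefSeq GRCm38.p6. The size factors, the noise fit and the noise call were tested on counts simulated from the fitted noise, and the other steps were not.

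The genes given in full are the 10 highest per exon kb, the 10 with the largest ratio at a mean of at least 50 in at least 10 cells, Sf3b1, Srsf2, U2af1 and U2af2, the 5 highest and 3 lowest pairs, genes counted in under 10 cells, and in each other list those called and the top 3 by mean. Members and lists were chosen with earlier results of these data known. Alternatives were other cell filters, size factors, noise settings, thinning to 739093 counts, a pseudocount of 10, ranks and partial correlations. The scripts ran on Python 3.11.15 (scipy 1.17.1, numpy 2.4.6, pandas 2.3.3, matplotlib 3.10.9).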

Additional observations from a re-analysis of the deposited data

How the results depend on the processing

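Of 331 values under alternatives, 306 stayed, 18 moved and 7 passed the test's threshold where they had not. To stay meant the same side of the test's threshold or, with no test, a change within the tolerance. The tolerance was 0.1 for r and 1.5 times for counts. For the median share it was the SD over cells (0.252), a wide limit beside its range of 1.03% to 1.05%. The ratios of named members to the technical curve, 229 of the 331 values, were held only to the test's threshold. Of these ratios 16 crossed the curve itself, 9 of them with genes scaled by spike-ins. Most changes came from scaling genes by spike-ins: 7 members were then called (Hnrnpab, Hnrnph1, Hnrnpu, Srsf1, Srsf2, Srsf3 and Srsf7; 4.94% of all genes), 27 of 40 lay above the technical curve (24.9% of all genes did), 9 of the other splicing genes were called and the median r between members was 0.218, the range over its alternatives being 0.0267 to 0.218. The cause was not tested. A minimum biological coefficient of variation of 0.25 called 1 member (Srsf1) and 4 of the other splicing genes, and a noise fit on spike-ins above the 50th percentile called 4 of the latter, beside 6.27% of all genes. With all 96 cells, 4 members were counted in every cell, cell 2 among them holding 1035 gene counts. The r of the member share with detected genes was 0.208 with all 96 cells, 0.224 without cells 49, 53, 66 and 78, and 0.272 as Spearman's rho; its r with the G1/S score was 0.388 without those 4 cells and 0.447 without cell 53. The number of members above the curve was 8 with total-count size factors or all 96 cells and 9 without cell 18, and 11 after thinning. The alternatives without cell 53, without the 8 cells of largest share, and those on named pairs were chosen after seeing the data. Depth limits the low members: a count of 0 allows up to 5.72 normalized counts in the shallowest cell. No paired analysis was possible because the cells form 1 group.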

Other observations

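In the 4 cells left out on technical measures, the splicing regulators took shares of gene counts inside the range of the cells kept. The shares were 0.773% in cell 1, 0.966% in cell 2, 0.779% in cell 6 and 1.28% in cell 36. Cell 2, with 1035 gene counts, had counts for 9 of the 40 genes, and the other cells left out for 34, 28 and 30.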
